A study of Homo sapiens with 6 samples.

Results

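The 6 human DNA topoisomerase genes, TOP1, TOP1MT, TOP2A, TOP2B, TOP3A and TOP3B, were measured as RNA in UWB1.289 cells treated with the PARP inhibitor Olaparib. They were taken by gene symbol, and each symbol matched 1 Ensembl identifier among the 63677 of the deposited gene counts. All 6 were among the 21729 genes with more than 10 counts over the samples. The rule itself used gene names, but the family was chosen on results of these same counts, the fold changes between Olaparib and DMSO. The differences between the groups are therefore given below as a description of the members, and nothing is supported with them.

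UWB1.289 is a high-grade serous ovarian carcinoma line that the study describes as BRCA1-deficient, although the sample labels give its genotype as WT. Poly(A) RNA was sequenced from 3 samples treated with Olaparib at 4 µM for 24 h and from 3 samples given the solvent dimethylsulfoxide (DMSO) for the same time. The sample labels and the methods give 4 µM, whereas the design text of the series gives 10 µM. The study describes 3 dishes of this 1 line per condition and its replicates as independent, but does not tie each RNA sample to a dish, so p-values measure the spread between these samples. In such bulk samples, a change in the share of cells of one kind and a change in RNA per cell cannot be told apart.

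Topoisomerases relieve the twisting and tangling of DNA by cutting it, passing strands through or around the break, and sealing it again. Type I enzymes cut 1 strand and type II enzymes cut both strands of the helix. During the reaction the enzyme is bound covalently to the DNA end, and such cleavage complexes turn into DNA breaks when they are trapped, which is how camptothecin-type drugs on TOP1 and etoposide or doxorubicin on TOP2 enzymes kill tumour cells. TOP2A is made in dividing cells, mainly in G2 and mitosis, where it untangles sister chromatids, whereas TOP2B is expressed through the cell cycle and also in cells that no longer divide.

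Each library held between 35360458 and 39640775 counts, with normalization factors between 0.9946 and 1.0126. The share of the 10 most abundant genes was 6.143% to 6.432%, and that of mitochondrially encoded genes 5.682% to 6.112%. DMSO replicate 1 had the fewest counts, the highest factor and the lowest of both shares. The epithelial and ovarian label was checked by markers. Of 12 markers, 11 were past the filter, among them PAX8 with at least 10592 counts and KRT7 with at least 138624 counts in every library, while WT1 reached 8 counts in all 6 libraries together. Markers of other cell types were low or absent in part: PECAM1 had 0 counts, CD3E 6, DCN 4 and PDGFRB 5 over all libraries, whereas the endothelial cadherin CDH5 had between 1457 and 1772 counts per library and the collagen genes COL1A2 and COL1A1 between 1344 and 1557 and between 237 and 328. Summed over its list, the level of the leukocyte markers was between 125 and 145 normalized counts after Olaparib and between 106 and 129 in DMSO. The fibroblast markers summed to between 1642 and 1847 against between 1712 and 1840, and the endothelial markers to between 1564 and 1613 against between 1609 and 1723. VWF, an endothelial gene with 38 to 69 counts per library, was the 1 gene of these other cell types that was called, higher after Olaparib with a log2 fold change of 0.68 (edgeR adjusted p 0.0106). Of the epithelial and ovarian markers, PAX8 and CLDN4 were called higher, by 0.10 and 0.14 on the log2 scale. The part of these markers in the results below was not tested.

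TOP2A and TOP2B are close paralogs, of which the first was called different between the groups and the other was not (values below), and their upstream sequences are shown for that reason. For each gene the letters run 5′ to 3′ on the strand of the gene, in the RefSeq sequence of GRCh38.p14, and end at the base before the GENCODE gene. The RefSeq start of TOP2A is the same base, whereas that of TOP2B lies a few bases further downstream, which are not printed, and distances are counted from the RefSeq starts. The TOP2A stretch is chr17:40417897-40418146 on the minus strand and the TOP2B stretch is chr3:25664910-25665157 on the minus strand. Capitals mark the letters ATTGG. They are the reverse complement of the CCAAT box, which the trimeric factor NF-Y binds.
TOP2A: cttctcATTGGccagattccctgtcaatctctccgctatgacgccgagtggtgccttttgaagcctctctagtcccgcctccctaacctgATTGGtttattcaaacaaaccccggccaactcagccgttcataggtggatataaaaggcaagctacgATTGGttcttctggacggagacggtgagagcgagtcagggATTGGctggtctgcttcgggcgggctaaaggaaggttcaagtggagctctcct
TOP2B: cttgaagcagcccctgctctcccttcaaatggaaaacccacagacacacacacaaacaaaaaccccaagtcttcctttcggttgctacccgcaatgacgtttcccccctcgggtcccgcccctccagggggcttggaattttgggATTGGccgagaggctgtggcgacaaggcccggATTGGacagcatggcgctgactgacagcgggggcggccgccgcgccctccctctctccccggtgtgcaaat

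TOP2A held 4 CCAAT boxes in this window, all in the opposite orientation, with their last base 240, 156, 89 and 49 bases upstream of the start. Of 35116 windows of the 250 bases upstream of RefSeq starts, 32.0% held at least 1 CCAAT on either strand and 0.874%, or 307 windows, held at least 4. TOP2B held 2, at 101 and 69 bases upstream of the start at base 25664907, and at least 2 were found in 9.53% of windows. A further annotated TOP2B start, at base 25664372, had 0. The letters TTTGAA, the core of the cell cycle homology region (CHR), were present 2 times upstream of TOP2A, at 189 and 146 bases. TOP2B held 1, upstream of the start at base 25664907. At least 1 on either strand was found in 13.3% of windows and at least 2 in 1.72%.

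The other members differed in these letters. The windows of TOP1, TOP3A and TOP3B held neither a CCAAT box nor a CHR core on either strand. The GC box of Sp1-type factors, searched as GGGCGG on both strands, occurred 1 time upstream of TOP1, 2 times upstream of TOP3A, 1 time upstream of TOP2A and 0 times upstream of TOP3B, with 2 and 1 upstream of the TOP2B starts at bases 25664907 and 25664372, against 42.6% of windows with at least 1. No match overlapped a match to another of these motifs, and these matches describe letters, not bound sites. TOP1MT had no window in the table.

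TOP2A (ENSG00000131747, chr17:40388525-40417896, minus strand, GRCh38), the type IIA enzyme of dividing cells, had 15226, 14023 and 14600 counts in the Olaparib samples and 12144, 12005 and 12377 in the DMSO samples. Scaled to a common library size, these were 15411, 14384 and 14513 normalized counts after Olaparib, compared with 12698, 11772 and 11733 in DMSO. All 3 Olaparib samples thus lay above all 3 DMSO samples, by more than the range within either group of replicates. The means were 14769 ± 559 (SD, n = 3) and 12068 ± 546 (SD, n = 3). In the edgeR quasi-likelihood fit across all genes, the log2 fold change was 0.29 (SE 0.032), a 1.22-fold higher level with a 95% interval from 1.17-fold to 1.28-fold, and the Benjamini-Hochberg adjusted p was 1.5e-07. By unadjusted p it ranked at position 17 of the 21729 genes tested, while by fold change it ranked at position 129 of the 467 genes called higher.

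TOP2B (ENSG00000077097, chr3:25597978-25664909, minus strand), the paralog that acts at promoters and in non-dividing cells, showed no such separation. It had 6562, 6160 and 6165 normalized counts after Olaparib against 6489, 6521 and 6630 in DMSO. Olaparib replicate 1 lay inside the DMSO range and the other 2 lay below it. The means were 6296 ± 230 and 6547 ± 74.1, and the log2 fold change was -0.056 (SE 0.032, 95% interval -0.12 to 0.0084) with an edgeR adjusted p of 0.430, so a change was not detected and a fall of up to 0.12 on the log2 scale was within the interval.

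The ratio of the raw counts of TOP2A to TOP2B within a library does not depend on library size. It was 2.35, 2.33 and 2.35 in the Olaparib samples and 1.96, 1.81 and 1.77 in the DMSO samples. All 3 Olaparib ratios of the type II pair lay above all 3 DMSO ratios, with means of 2.35 ± 0.00992 and 1.84 ± 0.0994.

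**Figure D1:**
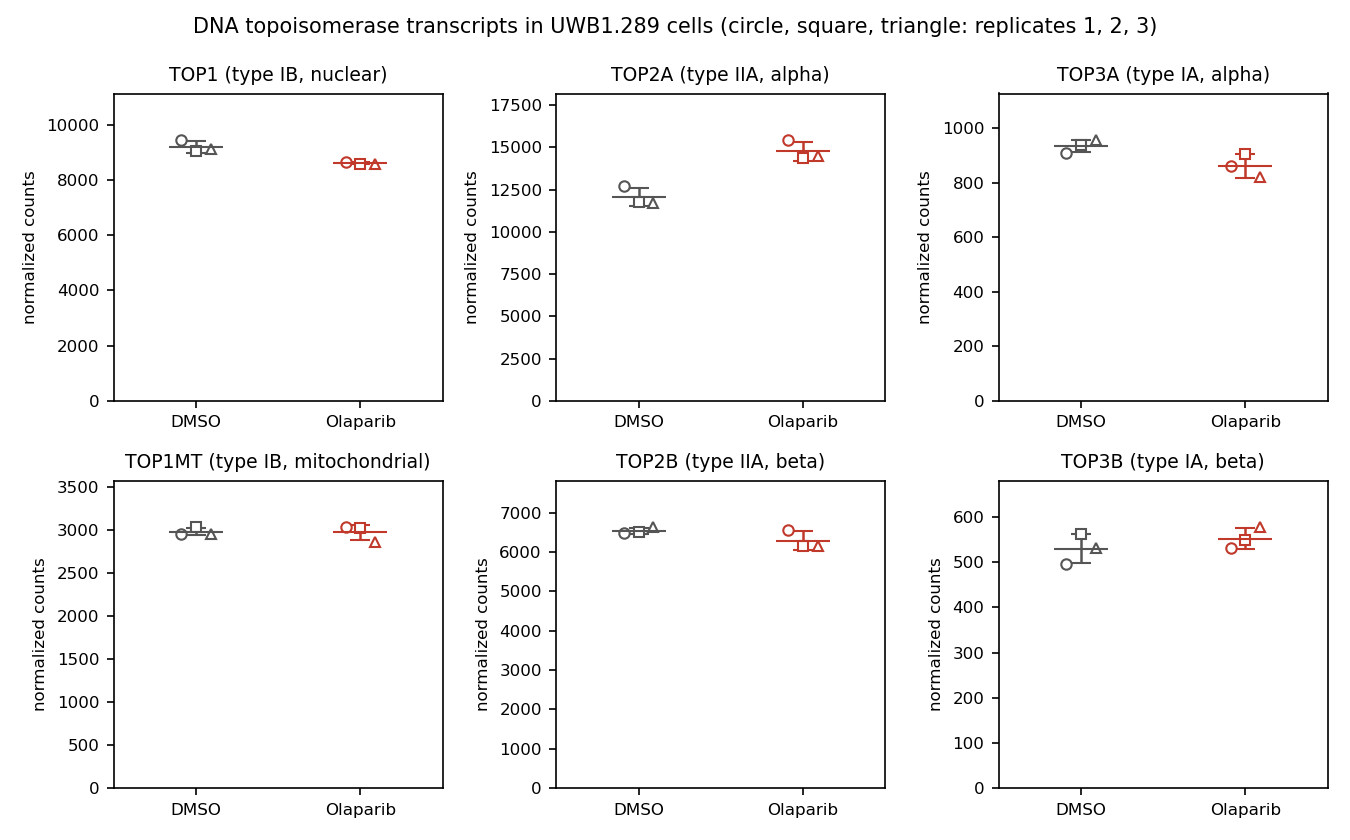
Normalized counts (y axis, starting at 0) of each topoisomerase gene in the 3 DMSO and 3 Olaparib samples, with replicates 1, 2 and 3 as circle, square and triangle, horizontal lines at the group means and error bars of 1 SD. The TOP2A panel shows all Olaparib samples, 14384 or more, above all DMSO samples, 12698 or less, while TOP2B, TOP1MT and TOP3B overlap between the groups.

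TOP1 (ENSG00000198900, chr20:41028822-41124487, plus strand), the type IB enzyme that relaxes supercoils ahead of replication and transcription in the nucleus, had 8652, 8574 and 8593 normalized counts after Olaparib. The DMSO samples had 9430, 9030 and 9112. Every Olaparib sample lay below every DMSO sample, with means of 8606 ± 40.6 and 9191 ± 211. The log2 fold change was -0.095 (SE 0.029, 95% interval -0.15 to -0.035), or -6.36%, and the edgeR adjusted p of 0.0672 did not pass 0.05. TOP1 did pass with DESeq2, upper-quartile factors, edgeR's own expression filter or the replicate block, at adjusted p of 0.0448, 0.0375, 0.0367 and 0.0095. Its log2 fold change there was between -0.10 and -0.094. It did not pass with limma voom, RLE factors or no filter. With any 1 library left out it did not pass either, at edgeR adjusted p between 0.0621 and 0.254. The log2 fold change in those fits was between -0.11 and -0.074. The design gives no pairing by replicate number, and the counts did not settle whether there is one (last section). Values with the replicate block, here and below, therefore rest on an assumed pairing.

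TOP1MT (ENSG00000184428, chr8:143304384-143359979, minus strand), the paralog of TOP1 that works on mitochondrial DNA, had 3027, 3016 and 2863 normalized counts after Olaparib, compared with 2955, 3027 and 2950 in DMSO. The groups overlapped, with means of 2969 ± 91.7 and 2977 ± 43.1. Its log2 fold change of -0.0044 (SE 0.038, 95% interval -0.082 to 0.073) had an edgeR adjusted p of 0.979.

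The type IA enzymes TOP3A and TOP3B were the least abundant members in raw and normalized counts. TOP3A (ENSG00000177302, chr17:18271428-18315007, minus strand), which with the BLM helicase dissolves joined DNA molecules and also separates mitochondrial genomes, had 860, 906 and 819 normalized counts after Olaparib, compared with 909, 937 and 955 in DMSO. The Olaparib samples lay below the DMSO samples by a gap of few counts between the nearest samples, 906 and 909. The means were 862 ± 43.3 and 934 ± 23.2, and the log2 fold change of -0.12 (SE 0.048, 95% interval -0.21 to -0.018) had an edgeR adjusted p of 0.222.

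TOP3B (ENSG00000100038, chr22:21957025-21982813, minus strand), which can act on RNA as well as DNA, had 531, 549 and 578 normalized counts after Olaparib, compared with 497, 562 and 533 in DMSO. The groups overlapped, and the log2 fold change was 0.058 (SE 0.057, 95% interval -0.057 to 0.17) with an edgeR adjusted p of 0.708. Its count is uncertain in origin, because 90.8% of its exonic bases in GENCODE v44 overlap the antisense gene PPM1F-AS1. The library kit was stranded, but whether the counting used strand is not given in the sources used here. PPM1F-AS1 itself had 34 to 57 counts per library. For TOP1 and TOP2B the overlapped exonic share was 2.01% and 1.17%, and for TOP2A it was 0%.

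Of the 6 members, 1 (TOP2A) was called at an adjusted p under 0.05 and it was higher, against 3.36% of all genes tested, or 2.15% in that direction. Of the 416 genes tested with at least the mean normalized count of TOP2A, 28 were called higher. TOP2A also met a stricter call, an adjusted p under 0.05 together with a fold above 1.2, as did 0.723% of all genes in that direction. The groups did not overlap for 3 of the 6 members, 1 above (TOP2A) and 2 below (TOP1 and TOP3A), against 19.3% of all genes, 10.0% above and 9.29% below. The median log2 fold change of the members was -0.030 and that of all genes tested -0.0042. As the family was proposed with this contrast known, nothing is read from these shares.

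**Figure D2:**
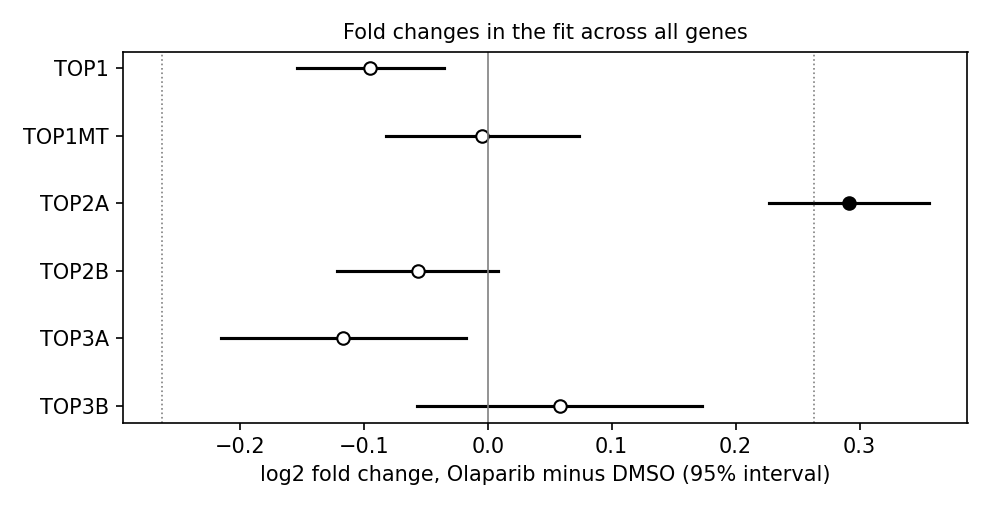
Log2 fold change of each topoisomerase gene, Olaparib minus DMSO (x axis), with its 95% interval, from the edgeR fit across all genes. The filled point (TOP2A, 0.29) is the 1 member past an adjusted p of 0.05, open points are not past it, and dotted lines mark a fold of 1.2 in either direction.

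Levels were compared between members per length, in RPKM units, that is counts divided by the kilobases of merged exons and by the library total. Over all 6 samples TOP2A was the most abundant at 56.2, ranking at position 681 of 20867 genes with a known length, followed by TOP1 at 23.5, TOP1MT at 12.4, TOP2B at 9.20, TOP3A at 2.92 and TOP3B at 2.18. No neighbours in this order overlapped over the 6 samples, with ratios of 2.39, 1.90, 1.34, 3.16 and 1.34 from each member to the next. The level of TOP3B is uncertain, because an antisense gene overlaps 90.8% of its exonic bases and the strand setting is not given. Of the summed level of the family by merged exons, TOP2A made up 55.8% after Olaparib and 49.7% in DMSO.

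The order depended on the length used. Per kilobase of the longest annotated transcript, TOP2A remained first at 62.9, but TOP1MT at 39.1 came above TOP1 at 29.4, followed by TOP2B at 21.9, TOP3A at 3.64 and TOP3B at 3.47. The last pair then overlapped between samples. By this length TOP2A made up 41.9% of the summed level of the family after Olaparib and 36.4% in DMSO. TOP1MT has merged exons of 6425 bases and a longest transcript of 2029 bases, and TOP2B 18645 and 7848, whereas for TOP2A the lengths are 6374 and 5695.

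**Figure D3:**
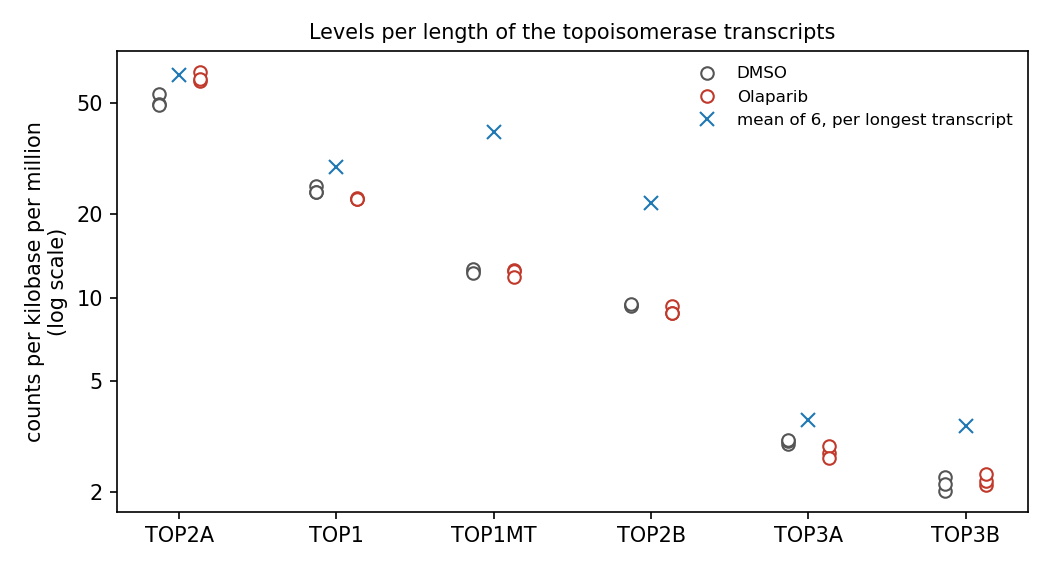
Level per length in RPKM units (counts per kilobase and library total, log y axis) of each topoisomerase gene in the 3 DMSO (grey) and 3 Olaparib (red) samples by merged exon length, with blue crosses for the mean of all 6 samples by the length of the longest transcript. TOP2A is the highest by either length (56.2 and 62.9), while TOP1MT and TOP1 change places.

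TOP2A belongs to the genes that rise in G2 and mitosis, and a list of 22 other such genes was measured beside it. Of these, 11 were called higher and 0 lower by the edgeR test, where 2.15% and 1.21% of all genes were, with a median log2 fold change of 0.12. At an unadjusted p under 0.05 there were 18 higher and 0 lower, against 14.8% of all genes in either direction. These shares of all genes include genes with far fewer counts than the listed ones. Of the 416 genes tested with at least the mean normalized count of TOP2A, 28 were called higher. Every listed gene but TPX2 lay below that mean, so these 416 genes do not match the list in level. None of the 22 had a log2 fold change above the 0.29 of TOP2A. UBE2C, a ubiquitin-conjugating enzyme of mitotic exit, came closest at 0.25 (SE 0.030, edgeR adjusted p 1.2e-06), with 8609 ± 49.6 normalized counts after Olaparib and 7260 ± 160 in DMSO. HMMR, a spindle-associated protein, rose by 0.24 (SE 0.029, edgeR adjusted p 1.8e-06) and CDK1, the mitotic kinase, by 0.18 (SE 0.031, edgeR adjusted p 2.0e-04).

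MKI67, the gene of the proliferation marker Ki-67, showed no such separation between the groups. It had 10900, 10728 and 10075 normalized counts after Olaparib, compared with 10954, 11454 and 10514 in DMSO, with overlapping groups and a log2 fold change of -0.054 (SE 0.032, edgeR adjusted p 0.465). The raw count ratio of TOP2A to MKI67 was 1.41, 1.34 and 1.44 after Olaparib and 1.16, 1.03 and 1.12 in DMSO, with no overlap. The ratio of TOP2A to CDK1 was 1.21, 1.21 and 1.2 against 1.14, 1.13 and 1.08, also with no overlap. Against UBE2C the ratio was 1.72 ± 0.0557 and 1.66 ± 0.0949, and against HMMR it was 1.27 ± 0.0279 and 1.22 ± 0.0630. In both of these the groups overlapped.

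Summed over the 22 genes, the normalized level was between 169194 and 172073 after Olaparib and between 154288 and 156657 in DMSO, so the summed level of the list moved with TOP2A between the groups. Whether it had a part in the TOP2A difference was not tested. In RefSeq windows of the same kind, present for 17 of the 22 genes, at least 1 CCAAT was found in 15, at least 2 in 10 and at least 4 in 2, against 37.0%, 11.5% and 1.07% of all 27305 genes with a window. Of the 17, 10 held at least 1 CHR core and 5 at least 2, against 16.05% and 2.16% of all genes with a window. The list was drawn up with results of these data known, so these shares are a description.

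Among 15 S phase genes, 1 was called higher and 3 lower by the edgeR test, against 2.15% and 1.21% of all genes, with a median log2 fold change of -0.058. At an unadjusted p under 0.05 there were 1 higher and 6 lower, against 14.8% of all genes. CCNE2, a cyclin of the start of S phase, fell by 0.38 on the log2 scale (SE 0.055, edgeR adjusted p 3.6e-05), from 1194 ± 76.2 to 920 ± 89.1 normalized counts. MCM6, a subunit of the replicative helicase, had a log2 fold change of -0.22 and RRM2, a subunit of ribonucleotide reductase, of -0.11 (edgeR adjusted p 9.9e-05 and 0.0246). CCNE1, the paralog of CCNE2, rose by 0.16 (edgeR adjusted p 0.00580). The summed level of the list was between 78901 and 79409 after Olaparib and between 80181 and 82153 in DMSO.

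**Figure D4:**
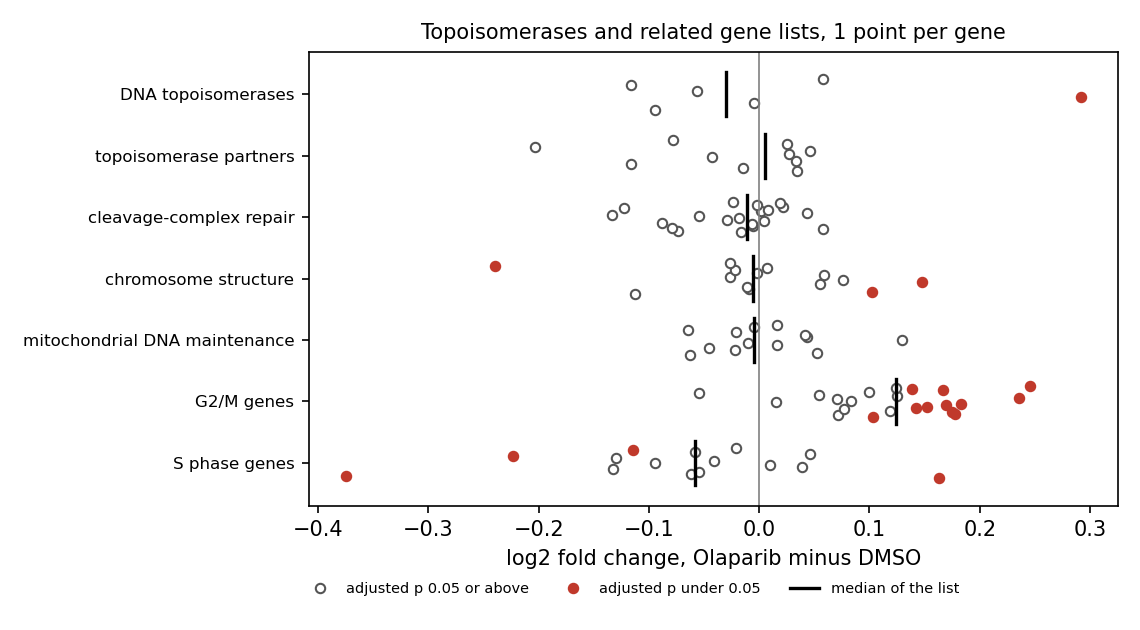
Log2 fold change, Olaparib minus DMSO (x axis), of each tested gene of the topoisomerase family and of 6 related gene lists, with filled red points for genes past an adjusted p of 0.05 (edgeR) and black bars at each list's median. The medians are 0.12 for the G2/M genes, -0.058 for the S phase genes and -0.030 for the topoisomerases, and TOP2A at 0.29 is the point farthest to the right.

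Chromosome structure genes act with TOP2A in shaping mitotic chromosomes, and of 14 condensin, cohesin and CTCF genes, 2 were called higher and 1 lower, against 2.15% and 1.21% of all genes, with a median log2 fold change of -0.0054. NCAPH, the kleisin subunit of condensin I, had 3029 ± 14.2 normalized counts after Olaparib and 2734 ± 62.1 in DMSO, a log2 fold change of 0.15 (SE 0.038, edgeR adjusted p 0.0205). NCAPD2, of the same complex, rose by 0.10 (SE 0.030, edgeR adjusted p 0.0449). STAG1, a cohesin subunit, fell by 0.24 (SE 0.042, edgeR adjusted p 4.3e-04), from 1669 ± 37.0 to 1413 ± 28.4. NCAPD2 was not called with upper-quartile factors or without Olaparib replicate 2, Olaparib replicate 3 or any 1 of the DMSO replicates. NCAPH was not called either without Olaparib replicate 2, Olaparib replicate 3 or DMSO replicate 3, where STAG1 was the 1 gene of the 14 called.

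No direct partner of a topoisomerase was called among 10 tested with edgeR (0 higher and 2 lower at an unadjusted p under 0.05, against 14.8% of all genes), and their median log2 fold change was 0.0052. The genes named here and in the next paragraph were chosen for their roles after their values were seen. BLM, RMI1 and RMI2, which form the dissolution complex with TOP3A, had log2 fold changes of 0.034, 0.027 and 0.046 (edgeR adjusted p 0.778, 0.864 and 0.722). TDRD3, the scaffold that binds TOP3B to messenger RNA, had 266, 293 and 252 normalized counts after Olaparib, compared with 294, 320 and 320 in DMSO, with no overlap by a narrow gap. Its log2 fold change was -0.20 (SE 0.076, edgeR adjusted p 0.154). FMR1, an RNA-binding protein found with TOP3B and TDRD3, had -0.12 (edgeR adjusted p 0.0974), and it was past the threshold with the replicate block (0.0338).

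Genes that remove trapped topoisomerases gave 0 calls among 20 (0 higher and 4 lower at an unadjusted p under 0.05, against 14.8% of all genes), with a median log2 fold change of -0.011. TDP1, which releases TOP1 from DNA 3′ ends, had 0.0080 (SE 0.041, edgeR adjusted p 0.954). TDP2, which releases TOP2 enzymes from 5′ ends, had 1919, 1880 and 1862 normalized counts after Olaparib, compared with 2077, 2026 and 2063 in DMSO, with all Olaparib samples below. The log2 fold change of TDP2 was -0.12 (SE 0.040, edgeR adjusted p 0.0905, and 0.0353 with the replicate block). RBBP8, which encodes the end-resection factor CtIP, had -0.13 (SE 0.040, edgeR adjusted p 0.0614), and it was past the threshold with limma voom (0.0488), upper-quartile factors (0.0430) and the replicate block (0.0187). PARP1, the main target of Olaparib, had 0.0045 with an edgeR adjusted p of 0.961.

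Of 13 genes that maintain mitochondrial DNA, where TOP1MT and an isoform of TOP3A act, 0 were called (1 higher and 0 lower at an unadjusted p under 0.05, against 14.8% of all genes), and their median log2 fold change was -0.0048. The 1 gene was POLRMT, the mitochondrial RNA polymerase, at 0.13 (SE 0.042, edgeR adjusted p 0.0928), and it was past the threshold without Olaparib replicate 1 (0.0389) and with the replicate block (0.0261). Across these lists, the calls therefore lay in the G2/M, S phase and chromosome structure genes, and whether the lists differ from each other was not tested.

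Genes related to the family by sequence or by reaction were nearly silent or not called. TOP3BP1, a copy of TOP3B, had 1 count in all 6 libraries, in DMSO replicate 3. SPO11, the topoisomerase-like enzyme that makes meiotic breaks, had 0 counts in every library. TOP6BL, its partner in meiosis, had 519 to 608 counts and a log2 fold change of -0.047, which was not called.

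The genes whose profile over the 6 samples was most like that of each member were sought among the 11996 genes averaging 100 counts or more. Likeness was the root mean square difference of log2 CPM (counts scaled to library size) after each gene's mean was removed. For TOP2A these were THBS1, a matrix glycoprotein, at 0.024 and MGA, a MAX-binding repressor, at 0.032. THBS1 had a log2 fold change of 0.32 (SE 0.029, edgeR adjusted p 2.9e-09). Within a difference of 0.05 there were 27 genes for TOP2A, compared with 1833 for TOP1, 3601 for TOP1MT, 2718 for TOP2B, 527 for TOP3A and 551 for TOP3B. Among the G2/M genes, HMMR was at position 36, UBE2C at 53, CDK1 at 56 and MKI67 at 8686 in likeness to TOP2A.

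The nearest genes of the members with small differences were many and close together. They were MKX and ZNF320 for TOP1 (0.0076 and 0.0086), SLU7 and YLPM1 for TOP1MT (0.0096 and 0.010), and PRNP and MSL2 for TOP2B (0.0062 and 0.0063). For TOP3A they were DNAH2 and ZNF875 (0.016 and 0.017), and for TOP3B KCNK5 and ZNF250 (0.015 and 0.018). Over 6 samples of 2 groups, such likeness describes these libraries only.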

How the data were processed

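RNA sequencing counts of 3 Olaparib and 3 DMSO samples were analysed. The authors trimmed reads with Trimmomatic, aligned them to GRCh38 with STAR and counted reads per Ensembl gene with featureCounts. The library kit was stranded and PCR duplicates were identified with Picard. The deposited values are raw counts per gene and sample, not normalized. The strand setting of the counting, and whether marked duplicates were removed before it, are not given in the sources used here. The library totals are in the report. Symbols, positions and lengths came from GENCODE v44 (GRCh38), which matched 96.0% of the genes tested. The study names another release of its GRCh38 reference. The gene models that were counted may therefore differ from those behind the exon overlaps, lengths and levels per length. The count table held no gene length, contrary to the plan, so merged exon length was used. Upstream windows came from RefSeq on GRCh38.p14, searched on both strands for exact matches to the motifs spelled out in the report.

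Genes with more than 10 counts in total were tested with edgeR 4.0.16 in R 4.3.3 (TMM factors, quasi-likelihood F test, Benjamini-Hochberg adjustment over all 21729 genes, two-sided), and a call is an adjusted p under 0.05. Normalized counts are counts divided by the TMM-adjusted library size and scaled to the mean of those sizes. Alternatives were DESeq2 1.42.0, limma voom 3.58.1, RLE and upper-quartile factors, no filter, filterByExpr, a replicate block, leave-one-out fits and longest transcript length. The edgeR, DESeq2 and limma voom fits without a block were tried on counts simulated with the spread of these data. The other steps were not tried in this way. All replicate pairs differed by more than sampling noise, and in both groups the pairs with replicate 1 differed most. The members and gene lists were chosen with earlier results of these data known. Genes were named by rule: the 6 members, gene copies and meiotic genes, MKI67, up to 3 called genes per list and direction with the largest change, and the 2 genes most like each member. The marker genes given, and the genes the report says were chosen for their roles, lie outside this rule.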

Additional observations from a re-analysis of the deposited data

How the results depend on the processing

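TOP2A was called higher in 13 of 13 alternatives, with a log2 fold change between 0.26 and 0.33 and an adjusted p between 1.5e-22 and 5.4e-05; it was under the 1.2-fold bound in 1 of them, without Olaparib replicate 1 (0.26). TOP1 kept its direction (-0.11 to -0.074) and was called in 4 of 13, so that 2 members rather than 1 were called with DESeq2 (-0.094), upper-quartile factors (-0.10), filterByExpr (-0.097) and the replicate block (-0.095). TOP1MT, near 0 throughout, changed sign without Olaparib replicate 3 (0.019) and without DMSO replicate 2 (0.0077), and was not called. Leaving out 1 library gave -0.017 to 0.019 for TOP1MT and 1 called member each time. TOP2B, TOP3A, TOP3B and TOP1MT were called in 0 of 13.

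Of all genes tested, 730 were called, 1322 with the replicate block and 398 to 870 when 1 library was left out (398 without DMSO replicate 2, 401 without DMSO replicate 3 and 439 without Olaparib replicate 3). With the fold of 1.2 the count was 262, 150 with DESeq2 and 178 to 237 with 1 library left out. Under the replicate block 1 partner gene, 2 repair genes, 1 mitochondrial gene and 7 S phase genes were called, and limma voom and upper-quartile factors each called 1 repair gene. Leaving out 1 library gave 1 to 3 chromosome structure genes and 0 to 1 mitochondrial genes, the 1 without Olaparib replicate 1. Deviations of same-numbered samples correlated at -0.204, 0.263 and -0.319 over 11997 genes. With 3 samples per group, these values cannot settle whether the replicate numbers pair the samples. The highest correlation, 0.484, was between Olaparib replicate 3 and DMSO replicate 1. Deviations from a mean of 3 samples sum to 0 within a group, so negative values are partly built in. By longest transcript, levels per length were 62.9 for TOP2A, 39.1 for TOP1MT, 29.4 for TOP1, 21.9 for TOP2B, 3.64 for TOP3A and 3.47 for TOP3B. Why the counts of calls moved between settings was not tested. The leave-one-out fits also held fewer samples than the main fit. With 3 samples per group and between 497 and 578 normalized counts, the interval of TOP3B, from -0.057 to 0.17, was the widest of the family.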
